A study of Homo sapiens with 12 samples.

Results

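The 6 genes HOXB1, HOXB3, HOXB5, HOXB6, HOXB8 and HOXB13 of the HOXB cluster were examined in 2 non-small cell lung cancer lines, A549 and PC9, that carried either a HOXC6 expression vector or an empty vector. The members were taken as the rows of the count table whose Ensembl identifiers belong to HOXB genes, which gave 6 of 12584 genes. The cluster holds 10 HOXB genes in the GENCODE annotation of GRCh37, and HOXB2, HOXB4, HOXB7 and HOXB9 were not analysed here. RNA-seq of polyadenylated RNA was available for 4 groups of 3 libraries, 12 in all. A549-NEO and PC9-NEO were transduced with the empty lentiviral vector pCDH-NEO, and A549-HOXC6 and PC9-HOXC6 with pCDH-HOXC6. Cells of every group were selected with neomycin and were stably infected. A549 was cultured in RPMI medium and PC9 in DMEM, so the effects of line and culture medium cannot be told apart. HOXC6 itself was not analysed here, so its level could not be used to check the library labels.

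HOX genes encode homeodomain transcription factors that give cells their position along the body axis. In vertebrates they stand in clusters, and the order of the genes along a cluster follows the order in which they are activated in the embryo and how far toward the tail they are used. The low-numbered genes respond first to retinoic acid, and the high-numbered genes act in caudal tissues. Polycomb complexes keep silent HOX genes closed, trithorax proteins keep active ones open, and CTCF and cohesin shape the chromatin loops of the clusters. In the lung, genes from the front and middle of the HOXB cluster take part in airway development, whereas HOXB13 is best known from the prostate and the distal colon.

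The HOXB cluster lies on chromosome 17 of GRCh37 from 46605888 to 46806112, a span of 200.2 kb, and all 6 members are transcribed from the minus strand. HOXB1 (ENSG00000120094, 46605888 to 46608373) is the member at the retinoic acid-responsive end. HOXB3 (ENSG00000120093, 46626232 to 46682274), HOXB5 (ENSG00000120075, 46668619 to 46671141) and HOXB6 (ENSG00000108511, 46673113 to 46682354) stand in the middle. HOXB8 (ENSG00000120068, 46688739 to 46692654) follows 6.4 kb after HOXB6. HOXB13 (ENSG00000159184, 46802125 to 46806112) is the far member, 98.4 kb beyond HOXB9. The exons of HOXB3 and HOXB6 share 433 bp on the same strand, which is 5.8% of the HOXB3 exons and 16.6% of the HOXB6 exons. HOXB6 also shares 425 bp with HOXB-AS3 on the opposite strand, and the strand setting of the counting is not given in the sources used here. The values of HOXB3 and HOXB6 are therefore less certain than those of HOXB8 and HOXB13, whose exons overlapped no exons of another annotated gene.

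Of the 6 members, HOXB1 had an entry among the RefSeq promoter sequences. Its 250 bases before the gene start are shown because HOXB1 is the member without a single read here and because this kind of promoter carries binding sites for HOX proteins with their PBX partners. The window is chr17:48531012-48531261 of GRCh38.p14 on the minus strand, upstream of the transcribed region, and the capitals mark the match to TGATNNAT, the letters searched on both strands for a joint HOX and PBX site.
HOXB1: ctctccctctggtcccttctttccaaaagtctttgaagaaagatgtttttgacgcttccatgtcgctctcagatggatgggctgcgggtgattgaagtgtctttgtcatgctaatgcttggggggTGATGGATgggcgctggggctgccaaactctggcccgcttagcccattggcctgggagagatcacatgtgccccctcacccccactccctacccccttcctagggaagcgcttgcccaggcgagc
The window held 1 match, TGATGGAT, which began 125 bases before the gene start. Among 35116 windows of the same length, 6.47% held at least 1 match. The window had a GC content of 57.2%, near the median of 58.0% over all windows, and 7 CpG dinucleotides. A match of letters is a description of the sequence and not a binding site.

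The libraries held 1212053 to 3286577 counts over the genes analysed, and A549-HOXC6 replicate 2 was the shallowest. Levels are given as CPM, the counts scaled to library depth after TMM normalization, with the SD over 3 libraries, and 3 counts in a library corresponded to 0.915 to 2.57 CPM. The labels call the replicates independent, without saying whether they came from separate infections. The p-values thus measure the spread between these libraries, which may be technical. Epithelial markers summed to 7802 to 11682 CPM per library over the 4 in the table. With the empty vector, EPCAM, KRT18 and CDH1 were lower in A549 than in PC9 (log2 fold changes -5.07, -2.34 and -1.06). KRT7 was higher in A549 (0.43), and all 4 had the same directions in the HOXC6 groups. The 6 alveolar markers summed to at most 10.2 CPM, with between 0 and 3 of them at 0 in a whole group. The 2 leukocyte and 2 endothelial markers in the table summed to at most 2.14 and 5.35 CPM. The 6 fibroblast markers summed to 54.2 to 77.6 CPM in A549 and 19.5 to 39.6 CPM in PC9. Nearly all of this was COL1A1, at 67.7 ± 1.0 and 64.5 ± 11.8 CPM in A549 and 24.8 ± 7.06 and 33.1 ± 5.57 CPM in PC9, and LUM was at 0 in all libraries. COL1A2 and DCN had at most 1 count in a library, and COL3A1 and PDGFRB at most 4. The part of these marker differences in the HOXB values was not tested. In such bulk samples, fewer expressing cells and less RNA per cell cannot be told apart.

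The cluster was used in different ways in the 2 lines. In A549, every member except HOXB1 was present, up to HOXB13 at the far end. In PC9, HOXB3, HOXB5 and HOXB6 were present, whereas HOXB8 and HOXB13 gave between 0 and 9 counts in a library. With HOXC6, HOXB13 rose in A549, though it fell below the size threshold after correction for GC content and length. No other member tested passed the thresholds in either line, and HOXB8 and HOXB13 had too few counts to be tested in PC9. The counts of the members summed to 298 to 334 per A549-NEO library, 173 to 397 per A549-HOXC6 library, 86 to 152 per PC9-NEO library and 67 to 207 per PC9-HOXC6 library.

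**Figure D1:**
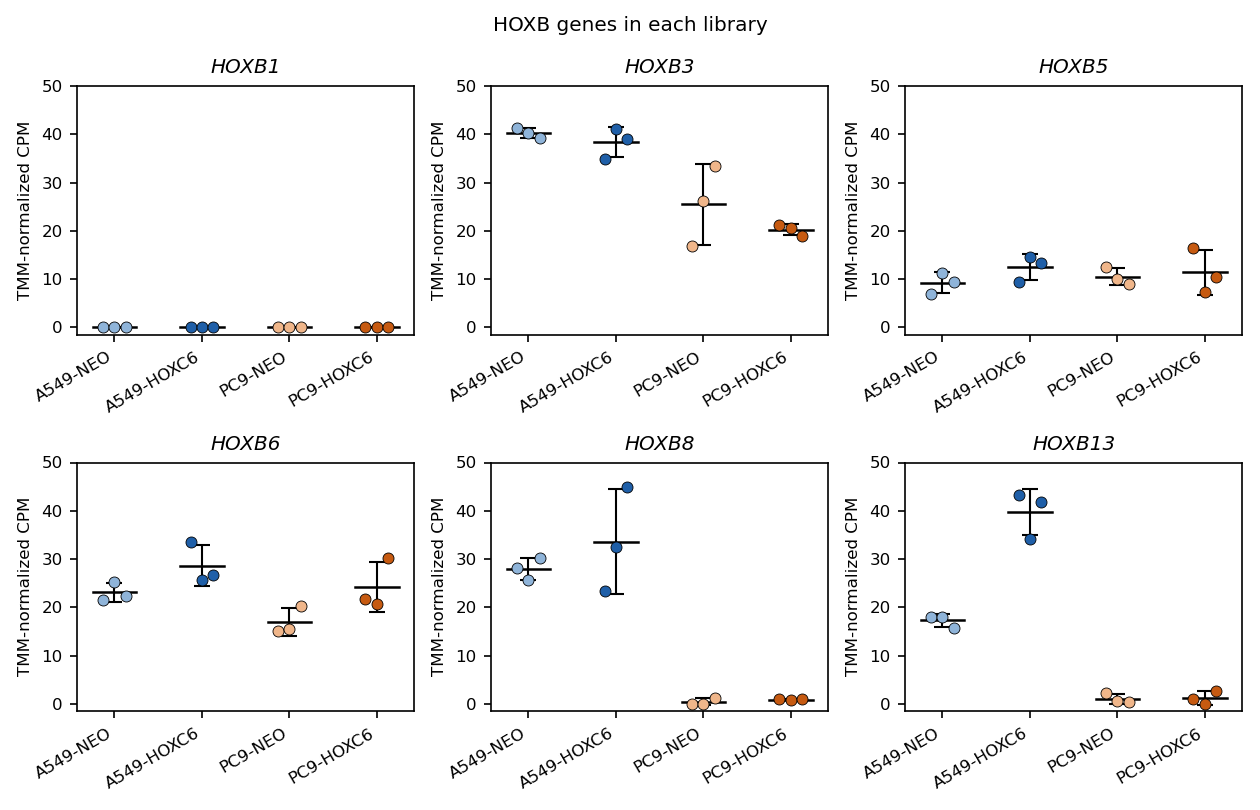
TMM-normalized CPM of the 6 HOXB genes in each of the 12 libraries, with 1 panel per gene and the 4 groups on the horizontal axis. Points are libraries, and bars are the mean and SD of 3 libraries. HOXB1 was at 0 throughout, HOXB8 and HOXB13 were near 0 in the 6 PC9 libraries, and the A549-HOXC6 libraries stood above the A549-NEO libraries for HOXB13.

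HOXB1, which patterns the hindbrain and its facial nerve, had 0 counts in all 12 libraries. A count of 0 over the 3 libraries of a group allows a level of up to 0.379 CPM in A549-NEO, 0.519 CPM in A549-HOXC6, 0.484 CPM in PC9-NEO and 0.447 CPM in PC9-HOXC6. These limits cover counting error alone, and HOXB1 entered no test.

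HOXB3, a regulator of hindbrain and thyroid development, was counted 119, 100 and 100 times in the A549-NEO libraries and 96, 48 and 73 times in the A549-HOXC6 libraries. It was counted 31, 52 and 79 times in PC9-NEO and 44, 28 and 62 times in PC9-HOXC6. The means were 40.3 ± 1.0 CPM (SD, n = 3) and 38.4 ± 3.14 CPM in A549 and 25.5 ± 8.4 CPM and 20.3 ± 1.21 CPM in PC9, with NEO first. After scaling, all A549 libraries stood above all PC9 libraries, and the 2 vector groups of each line overlapped. PC9-NEO was the widest of the groups, from 16.8 to 33.5 CPM.

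HOXB5, which acts in lung branching and in the enteric nervous system, was counted 20, 28 and 24 times in A549-NEO and 26, 17 and 25 times in A549-HOXC6. The PC9-NEO libraries gave 23, 20 and 21 counts and the PC9-HOXC6 libraries 34, 10 and 34. Its means of 9.21 ± 2.16 and 12.5 ± 2.67 CPM in A549 and 10.5 ± 1.80 and 11.4 ± 4.60 CPM in PC9 lay within the spread of each other. The ranges of all 4 groups overlapped.

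HOXB6, a member used in limb and blood progenitors, had A549-NEO counts of 62, 63 and 57 and A549-HOXC6 counts of 92, 30 and 50. The PC9-NEO libraries yielded 28, 31 and 48 counts and those of PC9-HOXC6 45, 28 and 99. The means were 23.1 ± 1.99 and 28.6 ± 4.23 CPM in A549, and 17 ± 2.89 and 24.2 ± 5.23 CPM in PC9. In CPM, the HOXC6 libraries of both lines stood above the NEO libraries of the same line, by as little as 20.6 against 20.4 CPM in PC9, and A549-NEO stood above PC9-NEO. The ranges of A549-HOXC6 and PC9-HOXC6 crossed.

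HOXB8, which is active in blood progenitors and the spinal cord, had A549-NEO counts of 81, 64 and 77 and A549-HOXC6 counts of 64, 38 and 84. In PC9-NEO, 2 libraries had 0 counts and replicate 3 had 3, and the PC9-HOXC6 libraries had 2, 1 and 3. The means were 28 ± 2.27 and 33.6 ± 10.9 CPM in A549 against 0.424 ± 0.735 and 0.872 ± 0.119 CPM in PC9. All PC9 values were thus at or below the level of 3 counts. The A549-HOXC6 libraries ran from 23.3 to 45.0 CPM and enclosed the A549-NEO range.

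HOXB13, a prostate and hindgut factor of the last paralog group, had A549-NEO counts of 52, 45 and 40 and A549-HOXC6 counts of 119, 40 and 78. Scaled for depth, these were 18.0, 18.1 and 15.7 CPM against 43.3, 34.2 and 41.7 CPM. The groups did not overlap, and the lowest HOXC6 library was also the shallowest. PC9-NEO gave 4, 1 and 1 counts and PC9-HOXC6 gave 2, 0 and 9. The means were 17.3 ± 1.35 and 39.8 ± 4.84 CPM in A549, and 1.03 ± 0.981 and 1.24 ± 1.39 CPM in PC9.

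Levels were also divided by exon length to set genes beside each other. The length takes in all annotated exons, 7425 bp for HOXB3 and 1859 to 3039 bp for the other members. The annotation release of the counting is not given, so the order, above all the place of HOXB3, depends on these lengths. In A549-NEO, the order was led by HOXB8 at 11.7 ± 0.944 CPM per kb and HOXB6 at 8.86 ± 0.764 CPM per kb. HOXB13 (5.69 ± 0.446), HOXB3 (5.42 ± 0.135) and HOXB5 (4.95 ± 1.16 CPM per kb) followed and did not differ beyond their spread. In A549-HOXC6, HOXB13 stood at 13.1 ± 1.59 CPM per kb, beside HOXB8 at 14.0 ± 4.52 and HOXB6 at 11 ± 1.62 CPM per kb, and these levels lay within the spread of each other. HOXB5 (6.70 ± 1.43) and HOXB3 (5.17 ± 0.422 CPM per kb) came after them. In PC9-NEO the order was HOXB6 (6.54 ± 1.11), HOXB5 (5.63 ± 0.966) and HOXB3 (3.43 ± 1.13 CPM per kb), and PC9-HOXC6 had the same order with HOXB6 (9.29 ± 2.01), HOXB5 (6.12 ± 2.47) and HOXB3 (2.73 ± 0.162 CPM per kb). In both PC9 groups HOXB6 and HOXB5 did not differ beyond their spread.

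**Figure D2:**
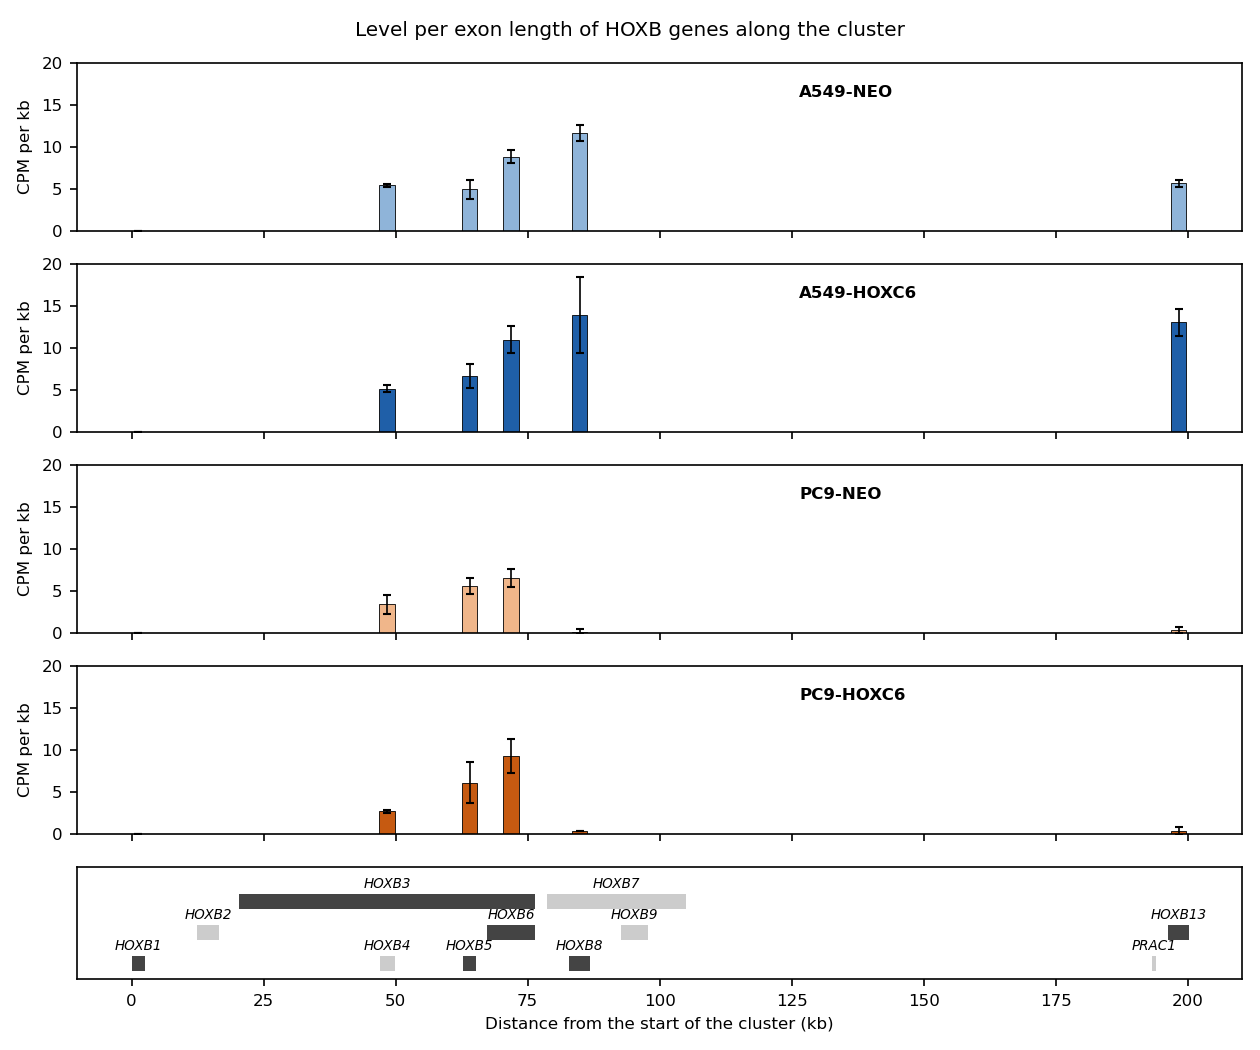
Mean CPM per kb of exon (bars, with the SD of 3 libraries) of the 6 HOXB genes at their positions along the cluster, with 1 row per group and the genes drawn to scale below; dark genes are the 6 members, and PRAC1 is a neighbour of HOXB13. The profile ran on to HOXB8 and HOXB13 in A549, and in PC9 both genes were near 0.

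The make-up of the HOXB counts shifted accordingly. HOXB8 made up 21.3% to 25.8% of the member counts of an A549-NEO library and 0% to 1.97% in PC9-NEO. HOXB13 made up 13.4% to 15.6% in A549-NEO and 23.1% to 30.0% in A549-HOXC6, while HOXB3 made up 33.3% to 35.6% and 23.5% to 27.7%. In PC9-HOXC6, HOXB6 made up 35.4% to 47.8%, in comparison to 29.8% to 32.6% in PC9-NEO. These shares are of counts, so that long genes weigh more.

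The first comparison asked whether HOXC6 changed the members in A549. A call by edgeR's quasi-likelihood test required an adjusted p below 0.05 together with a log2 fold change past 1 or -1. HOXB13 rose, with a log2 fold change of 1.18 (SE 0.190, edgeR adjusted p = 1.82e-05), which is 2.26-fold with a 95% interval of 1.73 to 2.96. HOXB5 (0.35, adjusted p = 0.392), HOXB6 (0.30, adjusted p = 0.228), HOXB8 (0.18, adjusted p = 0.507) and HOXB3 (-0.13, adjusted p = 0.534) did not pass by edgeR. For HOXB6 the 95% interval ran from -0.10 to 0.70 on the log2 scale and for HOXB8 from -0.24 to 0.60. So 1 of the 5 members tested was called, against 7.21% of 8771 genes, of which 1.70% were called higher. At an adjusted p under 0.05 of any size, it was also 1 of 5 members against 39.6% of genes. The median log2 fold change was 0.30 over the 5 members and 0.00 over all genes, and HOXB13 stood at rank 92 of the 149 genes called higher. With correction for trends on GC content and length, the median was -0.025 over the 5 members and -0.056 over all genes.

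HOXB13 has a GC content of 57.7% in its exons, in comparison to a median of 48.0% over the genes tested. With each library corrected for trends on GC content and length, HOXB13 differed by a log2 fold change of 0.86 (edgeR adjusted p = 4.53e-04), which was past the p threshold and below the size threshold. Leaving out each library in turn gave 1.10 to 1.25, and HOXB13 remained called without any 1 of them. PRAC1, a small gene of prostate and colon that starts 2.2 kb from HOXB13, had between 0 and 2 counts in the A549 libraries and 0 in the PC9 libraries, so no difference was detectable at this depth.

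A ratio between members of a library does not depend on the scaling over all genes. The ratios are not corrected for GC content or length. Exon GC content was 57.7% in HOXB13, 50.8% in HOXB3, 55.7% in HOXB6 and 57.2% in HOXB8. In A549-NEO, HOXB13 had 0.437, 0.450 and 0.400 counts per count of HOXB3, and in A549-HOXC6 1.24, 0.833 and 1.07. In relation to HOXB6 the values were 0.839, 0.714 and 0.702 against 1.29, 1.33 and 1.56, and in relation to HOXB8 0.642, 0.703 and 0.519 against 1.86, 1.05 and 0.929. The groups did not overlap for any of these 3 partners, and the geometric means differed 2.41-fold, 1.86-fold and 1.98-fold. The ratio of HOXB8 to HOXB3 was 0.681, 0.640 and 0.770 against 0.667, 0.792 and 1.15, with overlapping groups. In PC9, the ratio of HOXB6 to HOXB3 also differed without overlap, by 1.71-fold. With 3 libraries in each group the exact two-sided permutation test cannot go below p = 0.1. That was the value for this PC9 ratio and for each of the 3 HOXB13 ratios, or 0.275 after Benjamini-Hochberg adjustment over 11 ratios. The ratios were chosen after the levels had been seen and are a description.

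**Figure D3:**
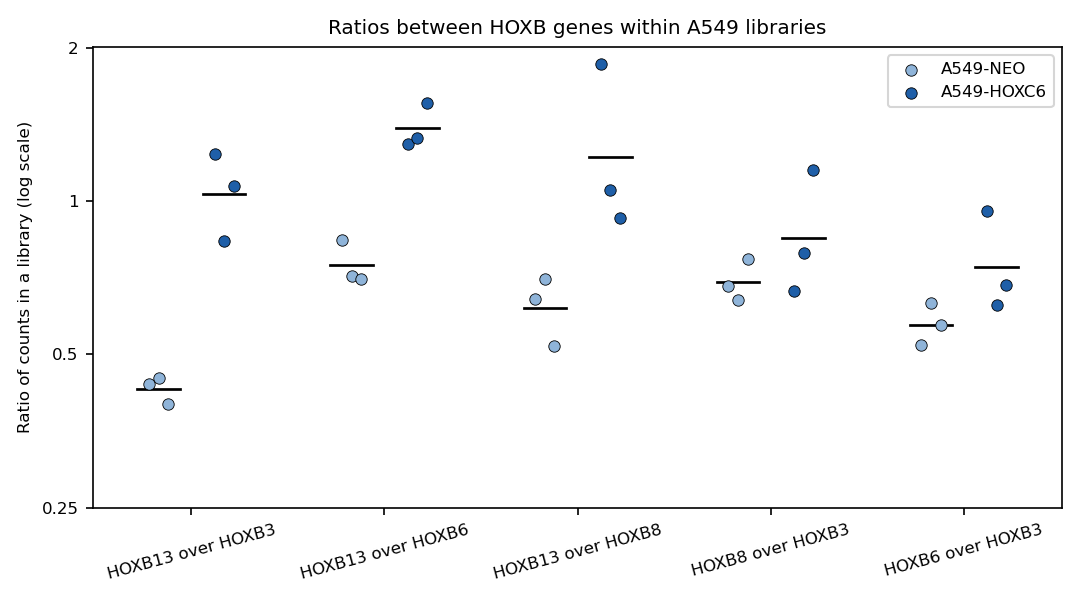
Ratios of the counts of HOXB genes within each A549 library on a log axis, for 5 pairs of genes. Points are libraries and lines are geometric means of 3 libraries. The A549-HOXC6 libraries lay above the A549-NEO libraries for HOXB13 over HOXB3, HOXB6 and HOXB8, and the groups overlapped for HOXB8 over HOXB3 and HOXB6 over HOXB3.

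In PC9, HOXC6 and NEO libraries were compared in the same way. HOXB6 had the largest difference of the 3 members tested, with a log2 fold change of 0.54 (95% interval 0.09 to 1.0, edgeR unadjusted p = 0.0213, adjusted p = 0.0700). HOXB5 stood at 0.16 (95% interval -0.47 to 0.80, edgeR adjusted p = 0.741) and HOXB3 at -0.36 (95% interval -0.82 to 0.10, edgeR adjusted p = 0.241). No member was called by edgeR or by DESeq2, against 4.53% of 8419 genes by edgeR, and none passed the adjusted p alone, against 27.5% of genes. At an unadjusted p under 0.05, 1 member passed, HOXB6. Its value leaned on PC9-HOXC6 replicate 3, the deepest library with 99 counts, and without it was 0.32 (edgeR adjusted p = 0.437). That of HOXB3 leaned on the spread of PC9-NEO, since it was -0.58 without replicate 1 and -0.10 without replicate 3.

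In PC9, HOXB8 and HOXB13 had too few counts to be tested. Over the 3 libraries of a group, HOXB8 had 6 counts with HOXC6 and 3 with NEO, a depth-scaled ratio of 1.85 with an exact 95% counting interval of 0.394 to 11.4. HOXB13 had 11 counts and 6 counts, a ratio of 1.69 with an interval of 0.574 to 5.58. Without the filter, the edgeR adjusted p-values were 0.690 and 0.677. A difference of the size seen for HOXB13 in A549 thus lies inside the interval in PC9. Counting intervals cover counting error only.

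The effects of HOXC6 in the 2 lines were compared as an interaction over 12 libraries. No member was called by edgeR, with adjusted p-values of 0.522 to 0.782, against 5.15% of 9229 genes called and 19.4% past the adjusted p alone. None passed at an unadjusted p under 0.05, and DESeq2 called none. For HOXB13 the difference was 0.52 on the log2 scale with a 95% interval of -1.30 to 2.33. A line-dependent effect on HOXB13 was therefore not shown, and the few PC9 counts left the interval wide.

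**Figure D4:**
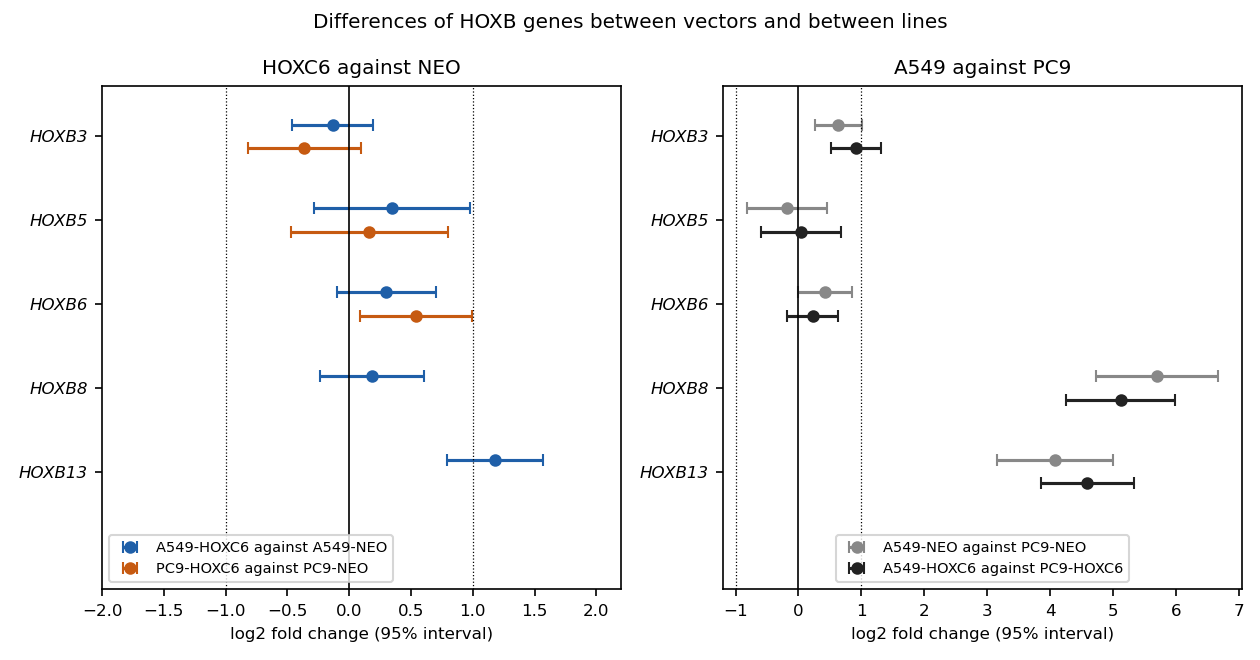
Log2 fold changes of the HOXB genes tested, with 95% intervals derived from the F statistic of edgeR: HOXC6 against NEO in each line on the left and A549 against PC9 with each vector on the right. Dotted lines mark the size threshold of 1 and -1. HOXB13 was past it on the left in A549, HOXB8 and HOXB13 were far past it on the right, and HOXB8 and HOXB13 have no PC9 value on the left because of their low counts.

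The second question was how the lines differed, first with the empty vector and then in the HOXC6 libraries, which share no library with the first. Both comparisons came from the same fit over 12 libraries, with a shared filter, scaling and estimate of the spread, and are not independent. HOXB8 was higher in A549 in both, with 222 counts against 3 in the NEO groups and 186 against 6 in the HOXC6 groups. Scaled for depth, these are ratios of 57.9 with an exact 95% counting interval of 19.6 to 283, and 35.9 with 16.2 to 99.2. HOXB13 was also higher, with 137 counts against 6, a ratio of 17.9 (8.0 to 49.5), and 237 against 11, a ratio of 25.0 (13.7 to 50.7). The edgeR adjusted p-values were 7.38e-14 and 4.88e-14 for HOXB8 and 1.72e-10 and 1.09e-14 for HOXB13. Both genes passed the count filter through their A549 libraries, since they did not pass it in PC9 alone. The direction of these tests was thus fixed beforehand, and the p-values are given as a description.

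With so few counts in PC9 the fitted size depends on single libraries and on the prior count. The log2 fold change of HOXB8 with the empty vector was 5.70, and 8.95 without PC9-NEO replicate 3, the library with the 3 counts. That of HOXB13 was 4.08, and 5.07 without PC9-NEO replicate 1, and with HOXC6 it was 4.59, and 5.98 without PC9-HOXC6 replicate 3. Both genes remained called in each case.

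The middle of the cluster differed less. HOXB3 was higher in A549, by 0.63 on the log2 scale with the empty vector (95% interval 0.27 to 1.0, edgeR adjusted p = 0.00213) and by 0.91 with HOXC6 (0.51 to 1.32, edgeR adjusted p = 1.08e-04), below the size threshold both times. HOXB6 differed by 0.42 (-0.01 to 0.85, edgeR adjusted p = 0.0774) and 0.23 (-0.18 to 0.63, edgeR adjusted p = 0.328). HOXB5 differed by -0.18 (-0.82 to 0.46) and 0.04 (-0.59 to 0.68). The intervals of HOXB5 and HOXB6 leave out a difference of 2-fold or more between the lines in either vector background.

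With the empty vector, 2 of the 5 members tested were called, both higher in A549, against 36.7% of genes called and 19.3% called higher, and 3 of 5 passed the adjusted p alone against 71.0%. With HOXC6 the numbers were again 2 and 3 of 5, against 34.8% called, 19.1% called higher and 67.9% past the adjusted p. The members called, HOXB8 and HOXB13, passed the count filter through A549 alone, so they could be called in this direction only. The lines differed in so many genes that the count of members called does not set the HOXB genes apart. HOXB8 stood at rank 228 and HOXB13 at rank 367 of 1779 genes called higher with the empty vector.

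Of the 33 HOX genes outside the members, 19 were in the table, and 9 were tested between the lines. Among them, HOXA2, HOXA3, HOXA7 and HOXA13 were higher in A549 in both comparisons, and HOXA9 and HOXC11 were higher in PC9 in both, with HOXC13 added with the empty vector. Of all genes, 36.7% were called between the lines with the empty vector and 34.8% with HOXC6. HOXA2, HOXA7 and HOXA13 had too few counts to be tested in PC9, and HOXA9 and HOXC11 in A549. The direction of their tests between the lines was thus fixed beforehand as well. Levels of the last paralog group, to which HOXB13 belongs, did not go one way. HOXA13 was at 8.17 ± 1.97 CPM in A549-NEO and 9.43 ± 5.33 CPM in A549-HOXC6, with 0 counts in all PC9 libraries. HOXC13 was at 21.9 ± 2.54 and 39.0 ± 5.35 CPM in A549 and 55.5 ± 9.81 and 55.5 ± 8.62 CPM in PC9. HOXD13 had at most 4 counts in a library.

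None of these other HOX genes was called with HOXC6 by edgeR, of 9 tested in A549 and 5 in PC9. Over all genes tested, 7.21% were called in A549 and 4.53% in PC9, so with so few HOX genes this does not set them apart. HOXC13, the paralog of HOXB13 in the HOXC cluster, had a log2 fold change of 0.75 in A549 (SE 0.188, edgeR adjusted p = 0.00234) and -0.02 in PC9 (edgeR adjusted p = 0.950). The difference between the lines was 0.81 on the log2 scale (edgeR adjusted p = 0.0141), which passed the p threshold and not the size threshold. HOXC13 is as rich in GC as HOXB13, at 57.4%, and stood at 0.41 after correction for GC content and exon length in A549 (edgeR adjusted p = 0.0841). Under that correction HOXA2 was the single HOX gene called with HOXC6, lower in A549 (-1.11, edgeR adjusted p = 0.00174).

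Genes beside the cluster were compared to see how far the pattern of the lines reached. Within 500 kb of the cluster 15 other genes were in the table and 8 were tested. None was called with HOXC6 in either line, against 7.21% of all genes in A549 and 4.53% in PC9. With 8 genes this does not set the neighbours apart. SNF8, a subunit of the endosomal sorting complex, was higher in A549 in both line comparisons (log2 fold changes 1.28 and 1.39, edgeR adjusted p = 3.47e-15 and 2.84e-16). CALCOCO2, an autophagy receptor, was called higher in A549 with the empty vector (1.05, edgeR adjusted p = 6.37e-11). The other tested neighbours passed the thresholds in neither line comparison, and the median over the 8 was 0.48 and 0.74, in comparison to -0.02 and 0.02 over all genes. Of the 8, 2 were called with the empty vector and 1 with HOXC6, against 36.7% and 34.8% of all genes.

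The known regulators of HOX clusters were taken as lists. Of the retinoic acid genes, 8 were tested between the lines, and 6 were higher and 2 lower in A549 in both comparisons, against 36.7% of all genes called with the empty vector and 34.8% with HOXC6. ALDH1A1, which makes retinoic acid, was at 4423 ± 140 CPM in A549-NEO and 37.2 ± 4.46 CPM in PC9-NEO. The receptor gene RARB was at 13 ± 3.08 and 0.875 ± 1.11 CPM, and passed the count filter through A549 alone. CYP26B1, which breaks retinoic acid down, was at 32.5 ± 2.0 and 7.42 ± 2.30 CPM. CRABP2, which carries retinoic acid to its receptor, was lower in A549, at 7.11 ± 1.16 CPM against 266 ± 16.7 CPM. With HOXC6, no gene of this list was called of 7 in A549, against 7.21% of all genes. ALDH1A1 alone was called of 7 in PC9, against 4.53% of all genes, and fell there by 1.88 on the log2 scale (edgeR adjusted p = 1.14e-07).

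Of 17 Polycomb genes tested, 1 was higher and 3 were lower in A549-NEO in comparison to PC9-NEO, and 2 were higher and 4 lower in A549-HOXC6 in comparison to PC9-HOXC6, against the same 36.7% and 34.8% of all genes. EZH2, the main H3K27 methyltransferase, was at 21.7 ± 1.79 CPM in A549-NEO and 88.8 ± 12.5 CPM in PC9-NEO, and its relative EZH1 at 71.2 ± 2.09 and 11.7 ± 4.09 CPM. With HOXC6, BMI1 of Polycomb complex 1 was the single called gene of the list in A549, lower by a log2 fold change of -1.63 (edgeR adjusted p = 5.94e-04), and none of the 17 was called in PC9, against 7.21% and 4.53% of all genes called. Of 11 trithorax and H3K27 demethylase genes, ASH1L (-1.14, edgeR adjusted p = 3.33e-06) and KMT2A (-1.01, edgeR adjusted p = 1.39e-06) were lower with HOXC6 in A549, where 5.51% of all genes were called lower, and none was called in PC9. Corrected for GC content and length, BMI1 (-1.29) and ASH1L (-1.04) remained called in A549, and KMT2A (-0.80) did not pass the size threshold.

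The list of cluster architecture genes, which holds CTCF, cohesin subunits and factors that load, hold or release cohesin, had the most calls with HOXC6. Of its 10 genes, 4 were called lower in A549 and 4 in PC9, and they had the same names, PDS5B, STAG2, SMC3 and NIPBL. Of all genes, 5.51% were called lower in A549 and 3.56% in PC9. NIPBL, the cohesin loader, stood at 30.8 ± 1.23 CPM in A549-NEO and 10.5 ± 3.71 CPM in A549-HOXC6, and at 76.0 ± 11.5 and 15.7 ± 1.08 CPM in PC9. The median log2 fold change of the 10 genes was -0.81 in A549 and -0.86 in PC9, in comparison to 0.00 over all genes in both. These 4 genes are poor in GC, with 34.2% to 38.8% in their exons. Corrected for GC content and length, NIPBL alone remained called in A549 (-1.11, edgeR adjusted p = 3.40e-04), NIPBL (-1.83) and SMC3 (-1.28) remained called in PC9, and the medians were -0.41 and -0.44. Of HOX cofactors, none was called with HOXC6 of 5 tested in A549 and 4 in PC9, against 7.21% and 4.53% of all genes. Between the lines PBX3 was higher in A549, at 39.6 ± 2.01 against 5.93 ± 2.14 CPM with the empty vector, and MEIS2 lower, at 9.04 ± 4.83 against 44.4 ± 3.74 CPM. These were 1 gene higher and 1 lower of 5 tested in both line comparisons. Over all genes, 36.7% were called with the empty vector and 34.8% with HOXC6, so this count does not set the cofactors apart. The 3 CDX genes, which activate caudal HOX genes in the embryo, were in the table and passed the filter in no comparison. Whether any of these regulators had a part in the HOXB values was not tested.

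The genes most like each member over the 12 libraries were listed as a description, by Pearson's r of log2 CPM. The 12 points fall into 2 lines, so r mainly follows the line, and r of the deviations from the group means is given second. The genes were picked by the first r, which includes these deviations, so the second r is not independent of that choice. HOXB8 was nearest to HMOX1 (0.994 and 0.806), which encodes heme oxygenase, then to ARHGAP44 and FBL. HMOX1 was at 183 ± 4.72 and 170.4 ± 28.4 CPM in A549 and at 12.2 ± 4.50 and 15.9 ± 0.758 CPM in PC9. HOXB13 was nearest to PITPNC1 (0.993 and 0.905), which encodes a phosphatidylinositol transfer protein, then to COQ8B and LRP3. PITPNC1 was at 48.8 ± 2.64 and 84.9 ± 5.10 CPM in A549 and at 4.97 ± 2.25 and 4.80 ± 2.26 CPM in PC9, the pattern of HOXB13 at a higher level. HOXB3 was nearest to YIPF4 (0.968 and 0.850), NMNAT3 and WDR35, and HOXB6 to TSC22D1 (0.895 and 0.683), PCTP and RAB11FIP1. HOXB5, which varied little between groups, had no gene above 0.789 (CPSF7), followed by CCDC51 and TMEM92.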

How the data were processed

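RNA-seq was analysed for 12 libraries, 3 for each of A549-NEO, A549-HOXC6, PC9-NEO and PC9-HOXC6. The deposited values are the authors' raw read counts per gene, without normalization. Per the submitters' processing notes and the methods, paired 150 bp reads were aligned with HISAT2 2.1.0 to GRCh37.p13 and counted with HTSeq 0.9.1; the strand setting and annotation release are not given in the sources used here. The table used here holds 12584 complete genes in Ensembl order, 1 incomplete row was left out, and scaling and adjustment ran over these genes. Totals were 1212053 to 3286577 counts per library, and low-count members are limited by counting error.

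Genes were filtered with filterByExpr, scaled by TMM and tested in R 4.3.3 with edgeR 4.0.16, and p-values were adjusted by Benjamini-Hochberg over all genes tested. HOXC6 against NEO was fitted per line on 6 libraries, and lines and the interaction on 12. An SE is the absolute log2 fold change divided by the square root of the F statistic. The 95% intervals of log2 fold changes use this SE and the t distribution, since the test gives neither itself. Alternatives were DESeq2 1.42.0, other scaling and filters, a replicate block, GC content and length correction (mgcv 1.9.3) and leaving out each library. Lengths and GC content come from GENCODE v44 lifted to GRCh37, and 121 genes had none.

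Named genes are the members, other HOX genes called in any comparison, the 3 most correlated genes per tested member, the regulators named from the lists and neighbours called within 500 kb, apart from a result that is not reported here. The members and lists were chosen with earlier results of these data known. Ratios within libraries and the regulator examples were chosen after values had been seen.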

Additional observations from a re-analysis of the deposited data

How the results depend on the processing

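Of 414 alternative log2 fold changes of members, 394 kept their direction and side of the thresholds, 2 were weaker and 18 changed sign, all of the latter in values that had not been called. The weaker values are HOXB13 in A549 under the GC content and length correction (0.86) and that correction with the replicate block (0.86), so the count of members called there was 0 and 0. With at least 10 counts in every library the count was 0 in both line comparisons, because HOXB8 and HOXB13 were then not tested. In every other setting the counts of members called were 1, 0, 2, 2 and 0 in the order of the report. All 48 alternative group levels moved by no more than 1 SD, and those of HOXB1 are 0 under any scaling.

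Corrected for GC content and length, HOXB5 was -0.0053 in A549, -0.030 in PC9 and 0.00499 between the NEO groups, and with the replicate block added -0.058 in PC9 and 0.00285 between the NEO groups. HOXB6 in A549 was -0.0250, or -0.0321 with the block, and HOXB8 in A549 was -0.16, or -0.17 with the block. By library size only, HOXB5 between the HOXC6 groups was -0.039. The cause was not tested. Leaving out each library in turn gave -0.15 to 0.33 for HOXB5 in PC9, -0.13 to 0.36 for HOXB5 between the HOXC6 groups, -0.11 to 0.45 for HOXB8 in A549, -0.36 to 0.041 for HOXB6 in the interaction and -0.48 to 1.90 for HOXB13 in the interaction. HOXB6 in PC9 passed the adjusted p, never the size threshold, without PC9-NEO replicate 3 (edgeR adjusted p = 0.0476) or PC9-HOXC6 replicate 2 (0.0498). With the GC content and length correction it was 0.34 (edgeR adjusted p = 0.304).

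Over all genes, at least 10 counts in every library gave 95 higher in A549 (149), 52 and 181 in PC9 (81 and 300), 931 and 937 between the NEO groups (1779 and 1612), 894 and 808 between the HOXC6 groups (1763 and 1451) and 134 lower in the interaction (220). The GC content and length correction gave 111 higher and 213 lower in A549 (149 and 483), which moved the share called higher from 23.6% to 34.3%, and 49 and 136 in PC9, or 213 lower in A549 and 50 and 139 in PC9 with the block. Replicates with the same number did not deviate together (r from -0.048 to 0.042), and the replicate block gave 150 higher and 493 lower in A549, 83 and 293 in PC9, and 1.17 for HOXB13 in A549, without a change of a member's call.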
